A study of Homo sapiens with 8 samples.

Results

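Matrix metalloproteinases (MMPs) and TIMP1, a tissue inhibitor of metalloproteinases, were measured in xenograft tumours of the ovarian cancer line SK-OV-3, which is of human origin. The line carried pIND_BORA, a vector that overexpresses BORA, in 4 of the tumours, and the empty vector pIND_EV (EV) in the other 4. BORA binds the kinase Aurora A and helps it to activate PLK1 before mitosis. The vector was the labelled difference between the groups, and both were implanted in nude mice, a host strain that lacks a thymus. The labels do not say whether the cells were 1 clone or a pool, whether an inducer of the vector was given, how old the tumours were, or whether each came from its own animal. The p-values given for other genes thus reflect variation among these 8 samples alone, and that variation could be technical.

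The genes were found by symbol in the annotation supplied with the arrays, taking the brightest transcript cluster (a group of probes that reports 1 gene) by its mean over all 8 arrays. Of 10 symbols, 9 had a named cluster out of 17709 named clusters, 8 of them MMPs and 1 a TIMP. No named cluster carried the symbol TIMP2, which is not analysed here. Each of the 9 had 1 cluster, so brightness decided nothing among them. The genes were chosen by their signal differences between BORA and EV tumours: the symbols were proposed with earlier BORA and EV values of these same arrays in view. Differences between BORA and EV tumours are therefore given for these 9 genes as a description, without p-values, and the number of calls is given only beside the share of calls over all clusters.

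MMPs are zinc-dependent proteases that are made as inactive precursors and cut proteins of the extracellular matrix. The collagenases MMP1 and MMP13 cleave fibrillar collagen, the gelatinases MMP2 and MMP9 cleave denatured collagen and basement membrane collagen, and the stromelysins MMP3 and MMP10 have broad matrix substrates and can activate other MMPs. MMP7 is a small epithelial protease, and MMP14 is anchored in the cell membrane, where it cleaves collagen and activates the precursor of MMP2. TIMP1 binds and blocks most secreted MMPs but inhibits MMP14 poorly. In ovarian carcinoma these enzymes are studied for their part in invasion.

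Several MMP promoters are known for an AP-1 element near a TATA box, and AP-1 is a factor built from FOS and JUN proteins. The RefSeq table of the GRCh38.p14 build holds promoters for 4 of the genes, and their 140 bases before the transcription start are shown because these genes differ in which of the searched motifs they hold. Capitals mark TGANTCA (the AP-1 core with any middle base, the same on both strands), TATAAA and GGGCGG (a GC box, read as CCGCCC on the other strand), searched on both strands over 250 bases before the start. The motifs found did not overlap each other. The sequences lie at chr11:102780629-102780768 on the minus strand (MMP10), chr11:102530748-102530887 on the minus strand (MMP7), chr14:22836445-22836584 on the plus strand (MMP14) and chrX:47582296-47582435 on the plus strand (TIMP1).
MMP10: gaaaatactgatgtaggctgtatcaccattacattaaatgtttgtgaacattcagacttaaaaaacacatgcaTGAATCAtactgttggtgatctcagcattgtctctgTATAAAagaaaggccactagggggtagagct
MMP7: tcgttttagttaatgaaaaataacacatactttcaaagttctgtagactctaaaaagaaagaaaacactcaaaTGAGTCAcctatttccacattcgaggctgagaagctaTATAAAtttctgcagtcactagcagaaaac
MMP14: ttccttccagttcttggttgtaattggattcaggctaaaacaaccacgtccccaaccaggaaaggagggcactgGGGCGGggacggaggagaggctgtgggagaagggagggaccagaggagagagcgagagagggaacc
TIMP1: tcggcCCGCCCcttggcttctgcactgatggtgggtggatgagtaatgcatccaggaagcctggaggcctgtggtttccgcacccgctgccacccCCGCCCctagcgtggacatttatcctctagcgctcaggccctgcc
MMP10 and MMP7 each held TGANTCA with its first base 67 bases before the start, and TATAAA 31 bases before the start in MMP10 and 30 in MMP7. MMP14 held GGGCGG 66 bases before the start and TIMP1 held it at 135 and 45 bases on the other strand, and neither held TGANTCA or TATAAA. Of the 35116 promoters in the table, 6.57% held TGANTCA, 10.7% TATAAA and 42.6% GGGCGG in the same 250 bases. A match is a stretch of letters and does not show that a factor binds there.

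All 8 arrays had similar medians, and the genes of an epithelial carcinoma were present. The background level of an array was set at the 95th percentile of its negative controls. It lay between 7.62 and 8.13 (log2) in BORA arrays and between 7.82 and 8.24 in EV arrays. Between 38.6% and 44.3% of named clusters exceeded it in BORA arrays, against 36.3% to 40.9% in EV arrays. BORA itself was at 12.76 ± 0.23 in BORA tumours and at 6.63 ± 0.57 in EV tumours (log2, SD, n = 4 each). It lay below the background level on all 4 EV arrays, so the rise was at least 27.0-fold (limma adjusted p = 2.38e-05). Of 7 measured carcinoma markers, 6 averaged above background in BORA tumours and in EV replicates 2 to 4, and MUC16 was below it on all 8 arrays. EV replicate 1 stood apart from the other 7 arrays. Its mean over 9 squamous epithelial markers was 13.87, against 5.60 to 6.13 in BORA tumours and 5.85 to 6.33 in EV replicates 2 to 4. Each MMP result is therefore given with and without that array.

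Over 8 arrays, MMP13 and MMP1 showed the largest fitted log2 differences among the 9 genes. Without EV replicate 1, that of MMP14 (4.03), which rests on EV signals below background, exceeded that of MMP1 (3.35). MMP14 was above background in all BORA tumours and in no EV tumour, and MMP3 and MMP9 stayed at background in every tumour. In the fit over all 17709 clusters (limma, Benjamini-Hochberg adjusted p under 0.05) 1 of the 9, MMP14, was called higher over 8 arrays, where 0.102% of all clusters were called higher and 0 lower. MMP14, MMP13 and MMP1, 3 of the 9, were called higher without EV replicate 1, where 0.435% of all clusters were called higher and 0.0791% lower. The groups did not overlap for 4 genes, MMP14, MMP13, MMP1 and TIMP1, all higher in BORA tumours, with all 8 arrays and without EV replicate 1. Over all clusters 4.45% lay without overlap and higher in BORA tumours with 8 arrays, and 4.91% lower. Those shares were 6.66% and 7.68% without EV replicate 1. The MMP14 call ended when any 1 BORA array, EV replicate 2 or EV replicate 3 was left out (0 of 9 called). In those fits 1 to 4 of all 17709 clusters were called, against 18 with 8 arrays. The fitted log2 difference of MMP14, which rests on EV signals below background, lay between 3.35 and 4.03 whichever array was left out. With EV replicate 1 already left out, the MMP1 call ended when BORA replicate 2 or 4 was left out too (2 of 9 called), and MMP10 was called as well when EV replicate 2 was (4 of 9). Of all 17709 clusters, 91 were called without EV replicate 1 alone. Leaving out BORA replicate 2, BORA replicate 4 or EV replicate 2 as well gave 25, 40 and 67. The median log2 difference of the 9 genes was 1.13 over 8 arrays and 0.81 without EV replicate 1, against -0.026 and -0.029 over all clusters. Over clusters that averaged above background in at least 1 group, the medians were 0.12 and 0.094. Both medians of the 9 genes were the same with MMP14 at the lower bound of its fold.

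**Figure D1:**
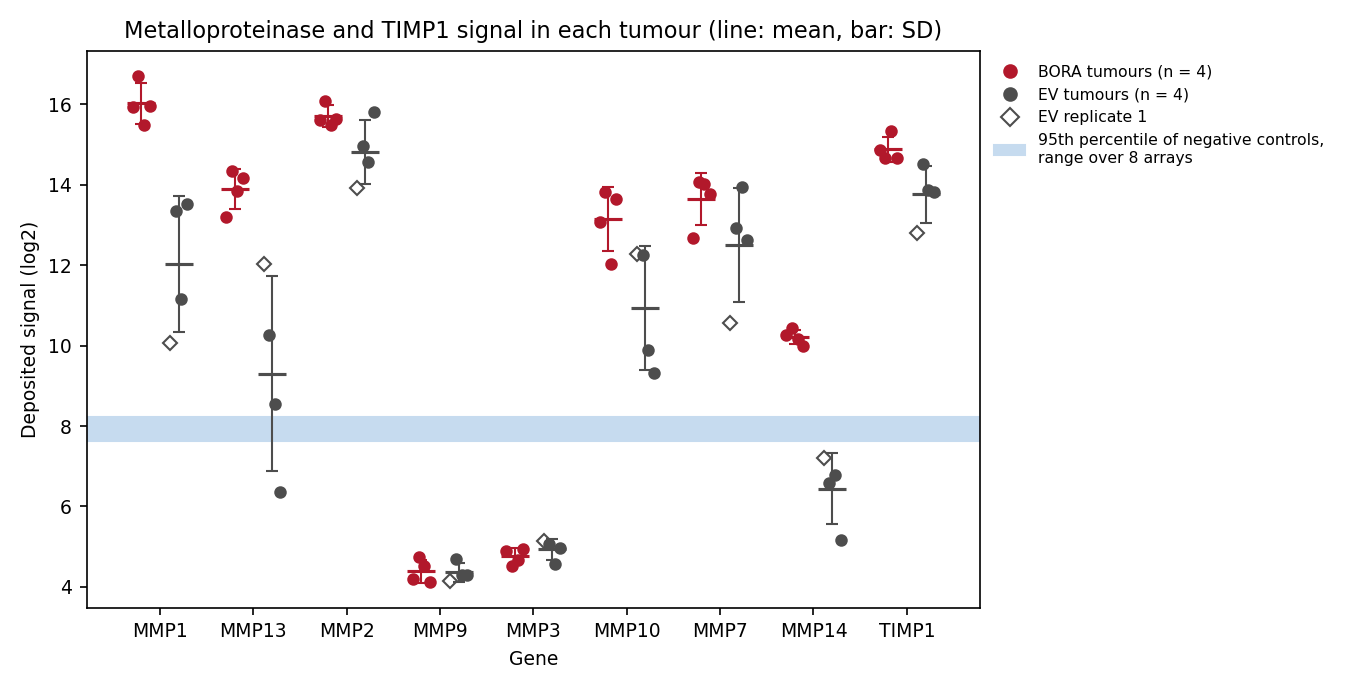
Deposited log2 signal (vertical axis) of the 9 measured genes (horizontal axis) in each BORA tumour (red, left) and each EV tumour (grey, right), with the mean as a line, the SD as a bar and EV replicate 1 as an open diamond. The blue band is the background level over the 8 arrays. MMP14 lies above the band in all 4 BORA tumours and below it in all 4 EV tumours, while MMP3 and MMP9 lie below it in all 8. Heights of different genes are not comparable, since each has its own probes.

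Among the collagenases, MMP1 was at 15.94, 16.70, 15.50 and 15.95 in BORA replicates 1 to 4. In EV replicates 1 to 4 it was at 10.08, 13.35, 11.17 and 13.51. The lowest BORA tumour thus lay 1.99 above the highest EV tumour, and the EV tumours spread widely, with EV replicates 2 and 4 high and EV replicates 1 and 3 low. MMP1 averaged 16.02 ± 0.50 in BORA tumours and 12.03 ± 1.68 in EV tumours (SD, n = 4 each), a log2 difference of 4.0 (SE 0.71) or 16.0-fold. Without EV replicate 1 the EV mean was 12.68 ± 1.31 (SD, n = 3) and the difference 3.35 (SE 0.49). Every array exceeded the background level for MMP1.

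MMP13 was at 13.21, 14.36, 13.85 and 14.16 in BORA replicates 1 to 4. It was at 12.04, 10.27, 8.56 and 6.36 in EV replicates 1 to 4. No EV tumour reached the lowest BORA tumour, and EV replicate 1, the array that stood apart, was the highest of the EV tumours. In EV replicate 4 MMP13 was not above background, so 3 of 4 EV tumours gave a measured level. The means were 13.89 ± 0.50 in BORA tumours and 9.31 ± 2.43 in EV tumours (SD, n = 4 each), with a log2 difference of 4.59 (SE 0.99) or 24.0-fold. Leaving out EV replicate 1 raised the difference to 5.50 (SE 0.68), or 45.2-fold, and leaving out EV replicate 4 instead lowered it to 3.60.

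The gelatinases MMP2 and MMP9 differed from each other in detection. MMP2 was at 15.62, 16.09, 15.50 and 15.63 in BORA replicates 1 to 4. In EV replicates 1 to 4 it was at 13.91, 14.98, 14.58 and 15.82, so EV replicate 4 exceeded 3 of the BORA tumours. The log2 difference of MMP2 was 0.89 (SE 0.35) over 8 arrays and 0.59 (SE 0.27) without EV replicate 1, and it was not called in either. MMP9 lay between 4.13 and 4.73 in BORA tumours and between 4.16 and 4.70 in EV tumours, below background on all 8 arrays. No fold is given for MMP9, and its signal does not show whether its transcript was absent.

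The stromelysin MMP10 was at 13.08, 13.82, 12.04 and 13.64 in BORA replicates 1 to 4. It was at 12.27, 12.26, 9.88 and 9.33 in EV replicates 1 to 4. EV replicates 1 and 2 lay above the lowest BORA tumour, so the groups overlapped, while EV replicates 3 and 4 lay well below. The MMP10 means were 13.15 ± 0.80 in BORA tumours and 10.94 ± 1.55 in EV tumours (SD, n = 4 each), a log2 difference of 2.21 (SE 0.70) or 4.63-fold. Without EV replicate 1 the difference was 2.66 (SE 0.61), and MMP10 was not called in either fit. The other stromelysin, MMP3, lay between 4.52 and 4.95 in BORA tumours and between 4.57 and 5.13 in EV tumours, below background on all 8 arrays.

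MMP7, the small epithelial protease, was at 12.69, 14.08, 14.03 and 13.76 in BORA replicates 1 to 4. In EV replicates 1 to 4 it was at 10.56, 12.92, 13.93 and 12.62, with EV replicate 1 lowest by far and EV replicate 3 inside the BORA range. The log2 difference of MMP7 was 1.13 (SE 0.63) over 8 arrays and 0.48 (SE 0.37) without EV replicate 1, or 2.19-fold and 1.39-fold. MMP7 was not called in either fit.

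MMP14, the membrane-anchored collagenase, was at 10.28, 10.43, 10.16 and 9.99 in BORA replicates 1 to 4. It was at 7.21, 6.58, 6.79 and 5.17 in EV replicates 1 to 4. The BORA tumours lay close together and all above background, and the EV tumours were all below background. The means were 10.21 ± 0.18 in BORA tumours and 6.44 ± 0.88 in EV tumours (SD, n = 4 each), with a fitted log2 difference of 3.78 (SE 0.38) over 8 arrays and 4.03 (SE 0.33) without EV replicate 1. Because the EV level was not well above background, the fold is a bound. Set against the higher of each EV array's lowest signal above background and its own signal, MMP14 was at least 4.63-fold higher in BORA tumours, and at least 4.89-fold without EV replicate 1.

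TIMP1, the inhibitor, was at 14.86, 14.68, 15.33 and 14.67 in BORA replicates 1 to 4. It was at 12.81, 14.53, 13.87 and 13.83 in EV replicates 1 to 4. The groups did not overlap, but the lowest BORA tumour lay 0.14 above EV replicate 2, the highest EV tumour. TIMP1 averaged 14.88 ± 0.31 in BORA tumours and 13.76 ± 0.71 in EV tumours (SD, n = 4 each), a log2 difference of 1.12 (SE 0.33) or 2.18-fold. Without EV replicate 1 it was 0.81 (SE 0.23), and TIMP1 was not called in either fit. Whether a protease and its inhibitor differed by unequal amounts was not tested.

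**Figure D2:**
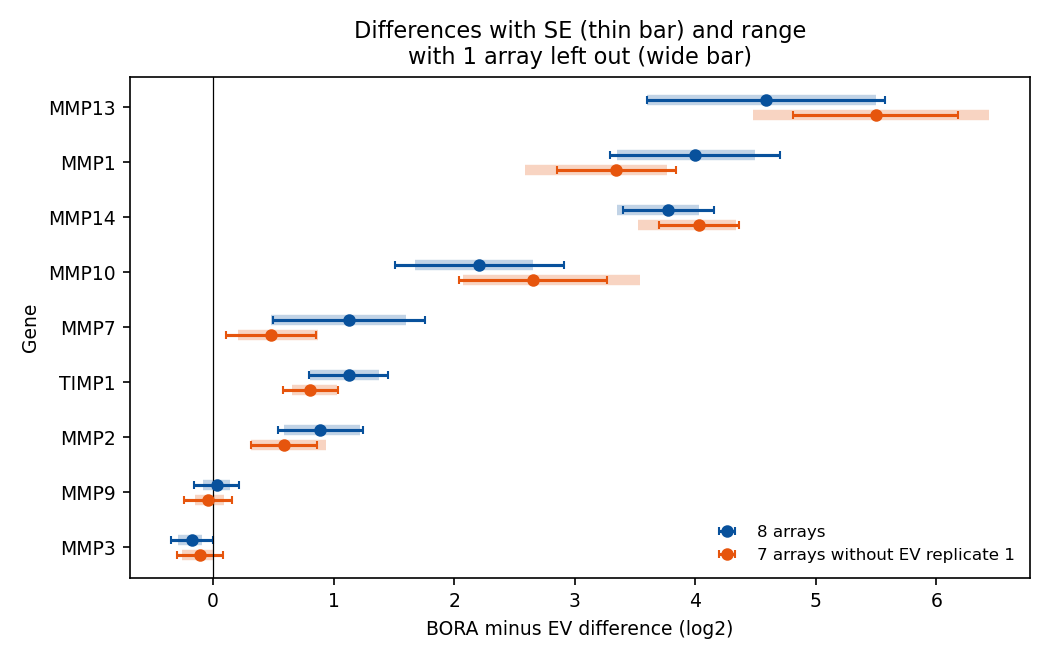
BORA minus EV log2 difference (horizontal axis) of each of the 9 genes (vertical axis) over 8 arrays (blue) and over 7 arrays without EV replicate 1 (orange), with the SE as a thin bar and the range over fits that leave out 1 further array as a wide bar. MMP13, MMP1 and MMP10 stay at 1.68 or above in every fit, and MMP14 is plotted at its fitted value although its EV signals are below background. MMP9 and MMP3, below background on all arrays, lie near 0.

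The EV tumours varied more than the BORA tumours in nearly all of these genes. The SD was larger in EV tumours for 8 of the 9 genes over 8 arrays, MMP9 being the exception, while 61.6% of all clusters had the larger SD in EV tumours. The count was again 8 of 9 without EV replicate 1, and 48.3% over all clusters. MMP13 had SDs of 0.50 in BORA tumours and 1.96 in EV replicates 2 to 4, and MMP1 of 0.50 and 1.31. In the same tumours the SDs lay close together for MMP7 (0.65 and 0.69) and TIMP1 (0.31 and 0.39). The SDs of MMP3, and of MMP14 in EV tumours, come from signals below background. EV replicate 1 was the lowest EV tumour for MMP1, MMP2, MMP7, MMP9 and TIMP1 and the highest for MMP3, MMP10, MMP13 and MMP14. Of these, MMP3, MMP9 and MMP14 were below background in all EV tumours. MMP10 was nearly level, at 12.27 in EV replicate 1 and 12.26 in EV replicate 2. For the other genes, that array was lowest for MMP1, MMP2, MMP7 and TIMP1 and highest for MMP13.

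The genes MMP7, MMP10, MMP1, MMP3 and MMP13 lie in 1 row of MMP genes on chromosome 11, together with MMP20, MMP27, MMP8 and MMP12. High differences and background signals alternated along this row. In the order of the row, the log2 differences over 8 arrays were 1.13 at MMP7, 0.031 at MMP20, -0.12 at MMP27, 0.27 at MMP8, 2.21 at MMP10 and 4.0 at MMP1. They continued with -0.17 at MMP3, -0.55 at MMP12 and 4.59 at MMP13. MMP20 (a tooth enamel protease), MMP27, MMP8 (the neutrophil collagenase), MMP3 and MMP12 (the macrophage elastase) were below background on all 8 arrays. The row's other 4 genes were above background in all 4 BORA tumours. In the promoter search, MMP20 held TGANTCA 112 bases and TATAAA 72 bases before its start. MMP8 held TATAAA at 110 bases, and MMP27 held none of the searched motifs. MMP1 and MMP3 are neighbours in this row, and MMP1 differed by 4.0 while MMP3 stayed at background.

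The genes that flank the row were detected on all 8 arrays and had log2 differences of at most 0.64, with overlap between groups. On the MMP7 side, BIRC2, an inhibitor of apoptosis, had a log2 difference of 0.60 (SE 0.29, limma adjusted p = 0.377) and TMEM123 of 0.36 (SE 0.26, adjusted p = 0.532). On the MMP13 side, DCUN1D5 had 0.64 (SE 0.37, adjusted p = 0.451) and DYNC2H1, a motor protein of cilia, 0.50 (SE 0.27, adjusted p = 0.420). These 4 genes had differences without EV replicate 1 between 0.11 and 0.33, and none passed (0 of 4 in limma). MMP20, MMP27, MMP8 and MMP12, which were not among the 9, did not pass in either fit (limma adjusted p = 0.508 to 0.951 over 8 arrays). The row's order comes from the RefSeq table of the GRCh38.p14 build, counting protein-coding genes that the arrays measured.

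**Figure D3:**
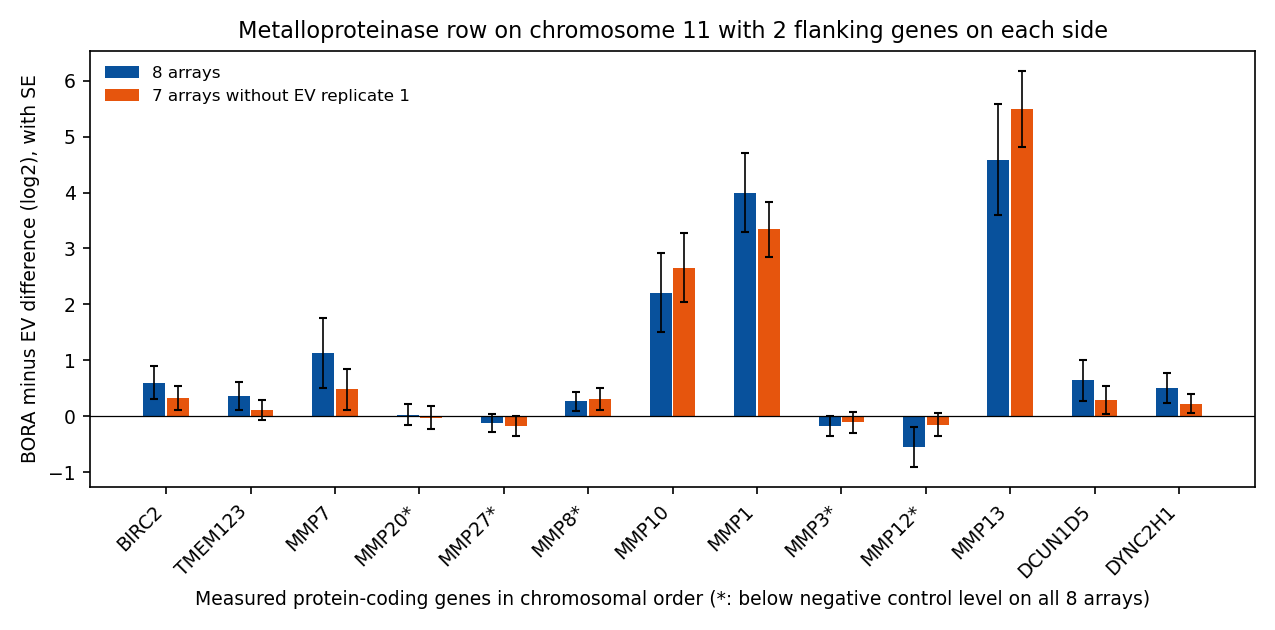
BORA minus EV log2 difference with its SE (vertical axis) for the MMP genes in their chromosomal order and 2 measured genes on each side (horizontal axis), over 8 arrays (blue) and without EV replicate 1 (orange). An asterisk marks the 5 genes below background on all 8 arrays. MMP10, MMP1 and MMP13 stand above 2, and the 4 flanking genes lie between 0.11 and 0.64.

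Gene profiles closest to those of MMP14, MMP13 and MMP1 were sought among all named clusters, by the root-mean-square difference in log2 units over the 8 arrays after each cluster's own mean was subtracted. Those closest to MMP14 were HSPG2 (the basement membrane proteoglycan perlecan, 0.83), IFI6 (an interferon-induced gene, 0.83) and KCNAB1 (a potassium channel subunit, 0.89), which was above background on 1 array. Those closest to MMP13 were MMP14 (1.16), MMP10 (1.45) and PDPN (podoplanin, 1.69). Those closest to MMP1 were ECSCR (a cell surface protein of endothelial cells, 0.68), CD40 (a receptor of the tumour necrosis factor receptor family, 0.79) and FLI1 (an ETS transcription factor, 0.92). ECSCR was at 11.54, 11.28, 11.46 and 11.22 in BORA replicates 1 to 4, and at 6.79, 9.58, 7.54 and 10.06 in EV replicates 1 to 4. Like MMP1, ECSCR was lower in EV replicates 1 and 3 than in EV replicates 2 and 4, but those 2 lower signals were below background. ECSCR and CD40 were above background on 6 arrays each, FLI1 on 3 and PDPN on 2. The profile of MMP14 includes EV signals below background. These profiles share the same arrays and the same split into groups, so closeness here is a description.

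Other genes of the metalloproteinase system were taken from 7 lists with 83 entries, of which 76 had a named cluster. None passed in limma over 8 arrays or without EV replicate 1 (0 of 76 in each), where 18 and 20 had an unadjusted p under 0.05. Those were 23.7% and 26.3% of the list genes, against 14.5% and 15.3% of all clusters. Of 14 other MMPs, 13 were below background on all 8 arrays and 5 had differences above 0, with a median of -0.096. MMP11, an MMP typical of stromal cells around carcinomas, was lower in BORA tumours without overlap, but below background on all arrays (adjusted p = 0.187). MMP19 (adjusted p = 0.457) and MMP25, another MMP of the cell membrane (adjusted p = 0.414), were also below background on all arrays. MMP28, named for its detection, exceeded background in EV replicate 1 (9.13) and in no other tumour.

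Of 5 other inhibitors, 2 had differences above 0 and the median was -0.15. TFPI2, an inhibitor of serine proteases that also limits matrix breakdown, was at 14.04, 13.82, 13.90 and 13.50 in BORA replicates 1 to 4 and at 10.10, 12.74, 12.76 and 13.33 in EV replicates 1 to 4. Its groups did not overlap, and its log2 difference was 1.58 (SE 0.59, limma adjusted p = 0.287), or 0.87 without EV replicate 1 (adjusted p = 0.0930). RECK, a membrane-bound MMP inhibitor, was at 0.20 (SE 0.22), while TIMP4 and A2M, the plasma protease inhibitor alpha-2-macroglobulin, were below background on all 8 arrays.

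Of 7 activators of MMP precursors and regulators of plasmin, 3 had differences above 0 and the median was -0.079. PLAUR, the urokinase receptor, was at 1.00 (SE 0.44, limma adjusted p = 0.342), and FURIN, the protease that removes the propeptide of MMP14, at 0.59 (SE 0.23, adjusted p = 0.299). The membrane serine protease ST14 (matriptase) was at -1.11 (SE 0.67) and above background in 1 BORA tumour and 2 EV tumours, and HPN (hepsin) was below background on all 8 arrays. Of 11 genes for docking, invadopodia and clearance, 6 had differences above 0 and the median was 0.066. CTTN, which encodes the invadopodium protein cortactin, was at 0.62 (SE 0.16, adjusted p = 0.175) with no overlap between groups. CLDN1 was at -0.76 (SE 0.18, adjusted p = 0.163) and CD44, a docking site for MMPs, at -0.58 (SE 0.26, adjusted p = 0.340), both also without overlap. ITGAV, an integrin subunit, was at -0.63 (SE 0.33).

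Transcription factors of the AP-1, ETS and RUNX families, listed with CEBPB, had the highest median of the 7 lists, 0.63. Of the 15 genes, 13 had differences above 0, against 46.6% of all clusters. Over clusters that averaged above background in at least 1 group, the median difference was 0.12. FOS, FOSB and CEBPB were below background on all 8 arrays. JUND, an AP-1 subunit, was at 8.44, 8.16, 9.10 and 9.02 in BORA replicates 1 to 4 and at 7.37, 7.54, 7.52 and 7.40 in EV replicates 1 to 4. All BORA tumours were above background and all EV tumours below it. JUND was therefore at least 1.60-fold higher in BORA tumours by the bound used for MMP14, and it did not pass over 8 arrays (limma adjusted p = 0.0994) or without EV replicate 1 (adjusted p = 0.0571). RUNX2, a regulator of MMP13 in bone and cartilage, was at 0.90 (SE 0.31, adjusted p = 0.268), and without EV replicate 1 at 1.16 (adjusted p = 0.0699) with no overlap. JUNB was at 0.87 (SE 0.31, adjusted p = 0.278) and ETV1, an ETS factor, at 1.82 (SE 0.64, adjusted p = 0.274). ETV1 overlapped between the groups. It was above background in all BORA tumours but in only 1 EV tumour, so its difference rests partly on EV signals below background.

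Among 12 cytokines and growth factors that induce MMPs, 7 had differences above 0 and the median was 0.24. CXCL8 was at 10.81, 14.44, 15.10 and 13.56 in BORA replicates 1 to 4 and at 9.02, 10.79, 9.96 and 11.32 in EV replicates 1 to 4. BORA replicate 1 lay inside the EV range for CXCL8. A link between CXCL8 and the MMP signals was not tested. The log2 difference of CXCL8 was 3.21 (SE 0.86, limma adjusted p = 0.188) and that of IL6 2.85 (SE 1.16, adjusted p = 0.314). IL6 was above background in 3 BORA tumours and 2 EV tumours, and its groups overlapped. TGFB1 was at 0.64 (SE 0.27, adjusted p = 0.328) and EREG, a ligand of the EGF receptor, was below background on all 8 arrays (adjusted p = 0.309). Among 12 matrix substrates, 9 had differences above 0 and the median was 0.30. The basement membrane collagens COL4A1 and COL4A2 were at 2.37 (SE 0.53, adjusted p = 0.141) and 1.28 (SE 0.38, adjusted p = 0.222), both without overlap. COL4A1 was above background in all BORA tumours but in only 1 EV tumour, so its difference rests partly on EV signals below background. ELN, the elastin gene, was at -0.61 (SE 0.20, adjusted p = 0.239) and BGN, which encodes biglycan, at 0.68 (SE 0.32, adjusted p = 0.374). ELN exceeded background in EV replicate 1 and in no other tumour.

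**Figure D4:**
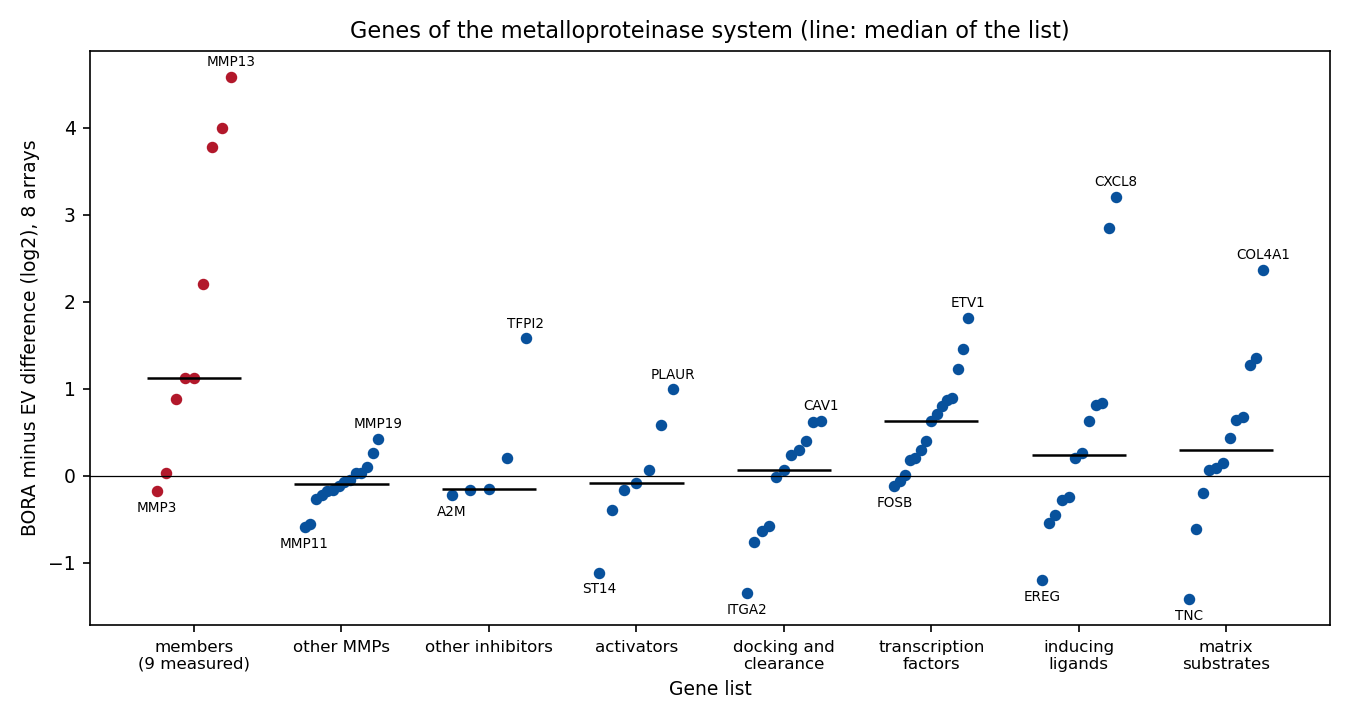
BORA minus EV log2 difference over 8 arrays (vertical axis) for the 9 genes (red) and for the genes of the 7 lists (blue), grouped along the horizontal axis, with a line at the median of each group and the name of its highest and lowest gene. No list gene lies above MMP1 or MMP13, MMP14 is plotted at its fitted value with EV signals below background, and the median lies highest for the transcription factors, at 0.63.

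Markers of other cell types that MMPs are known from were mostly at background. All 5 measured neutrophil markers and 5 of 7 macrophage markers (CD14, CSF1R, ITGAM, ADGRE1 and MRC1) were below background on all 8 arrays. The macrophage marker CD68 was above background on all 8 arrays. Its means were 10.75 in BORA tumours and 10.40 in EV tumours, with overlap (limma adjusted p = 0.567). CD163 exceeded background in EV replicate 2 (8.05) and in no other tumour. Its log2 difference was -1.01 (SE 0.40, adjusted p = 0.302). Without EV replicate 1 it was -1.26 (adjusted p = 0.136), lower in BORA tumours without overlap. Of 8 fibroblast markers, PDGFRA, PDGFRB, DCN and THY1 were below it on all arrays, and the mean of the list was 7.16 to 7.65 in BORA tumours, 7.10 in EV replicate 1 and 6.24 to 7.35 in EV replicates 2 to 4. Of 7 endothelial markers, KDR, VWF, TEK, CLDN5 and EMCN were below background on all arrays, and the mean of the list was 5.49 to 5.91 in BORA tumours, 5.24 in EV replicate 1 and 5.19 to 5.80 in EV replicates 2 to 4. The other endothelial markers did not pass, but their groups did not overlap: CDH5 was at 7.03 to 8.30 in BORA tumours and 4.48 to 6.56 in EV tumours (limma adjusted p = 0.129), and PECAM1 at 7.78 to 8.55 in BORA tumours and 5.90 to 7.54 in EV tumours (adjusted p = 0.137). Of the 8 fibroblast markers 3 had differences above 0, and the median was -0.27. PDPN was at 6.98 to 8.77 in BORA tumours and 3.68 to 6.77 in EV tumours (adjusted p = 0.137), without overlap. PDGFRA and THY1, below background, were lower in BORA tumours without overlap (adjusted p = 0.335 and 0.299). Of the detected fibroblast markers, ACTA2 was at -0.37 (SE 0.29), COL1A1 at 0.44 (SE 0.48) and LUM at 1.14 (SE 0.90). LUM was above background in all BORA tumours and in 3 EV tumours. Without EV replicate 1, LUM was at 2.07 (SE 0.53, limma adjusted p = 0.112), higher in BORA tumours without overlap. In that fit ACTA2 was at -0.42 and COL1A1 at 0.19, both with overlap. CDH5 and PDPN were above background in 2 BORA tumours each and PECAM1 in 3. No EV tumour was above background for CDH5, PDPN or PECAM1. The part of these genes' cells in the MMP differences was not tested. In such bulk tumour RNA fewer cells of a type and less RNA per cell cannot be told apart, and human probes may also read transcripts of the mouse host where sequences allow. Cells that the host contributes are of mouse origin, and probes for human genes may miss their transcripts. A marker at background therefore does not show that cells of that type were few.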

How the data were processed

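RNA of 8 tumours was measured on Affymetrix arrays, 1 array each. Each row of the deposited table is 1 probe set, with values read as log2 signal from their range because the labels name no log base. Per the submitters' processing notes, the authors used Affymetrix Expression Console. How it corrected background, summarised probes and normalized arrays is not given in the sources used here. Because the series' design text names another array type than the annotation supplied with the row identifiers, the array type is uncertain. Of 24351 rows, 17709 carried 1 gene symbol and 0 several, 3739 were unnamed and 2903 were controls, 612 of them negative. All 17709 gene IDs matched RefSeq.

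BORA minus EV was fitted for all named clusters with limma 3.58.1 (lmFit and eBayes, no covariates, R 4.3.3), Benjamini-Hochberg adjustment and a threshold of 0.05, over 8 arrays and without EV replicate 1. Folds are powers of 2 of the log2 differences. Groups came from the sample labels. The number of arrays limits the precision, and labels name no batch. The members and lists were chosen with earlier results of these data known. Besides the 9 genes, the text names BORA, the MMP row with 2 genes on each side, 3 nearest profiles each for MMP14, MMP13 and MMP1, and from each list up to 4 genes with the smallest p; of the marker lists those that bear on a result. Any gene outside this rule is marked as such or is named for its detection. Alternatives were the replicate block, quantile normalization, median centring, trend with robust fitting, array weights, 2 filters on dim clusters, all rows that are not controls, the mean of a symbol's clusters, and leaving out each array. The fit was tested on simulated data.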

Additional observations from a re-analysis of the deposited data

Results flagged for a closer look

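In groups of 4 tumours, a value was singled out where its gap to the nearest other tumour, relative to the group's range, exceeded Dixon's critical value. Chance does this in about 5% of groups; here it occurred in 13 of 150 groups (75 genes in 2 groups), in 0 groups of the 9 MMP and TIMP1 genes. In BORA replicate 1, MMP25 (4.59) and KRT7 (14.18) were high and S100A12 (2.88) was low. In BORA replicate 3 CSF3R was low (3.71), and in BORA replicate 4 FLI1, one of the profiles nearest to MMP1, was low (7.76, against 8.55 to 8.60 in the other BORA tumours). In EV replicate 1, DYNC2H1, which flanks the MMP row, was low (8.68, while EV replicates 2 to 4 had 9.67 to 9.86), and S100A9 (14.51), IVL (7.98) and S100A12 (7.48) were high. In EV replicate 2 PDPN was high (6.77, against 3.68 to 3.85) and IFI6 low (8.53). In EV replicate 3 PDGFRA was high (5.68), and in EV replicate 4 MUC16 was high (7.63). MMP25, S100A12, CSF3R, FLI1, IVL, PDPN, PDGFRA and MUC16 lay below background in these tumours.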

How the results depend on the processing

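Over 8 arrays 1 of the 9 genes was called; 0 were called with the replicate block, 3 with array weights, and 0 to 3 with 1 array left out. Without EV replicate 1, 3 were called, against 1 (MMP14) with trend and robust fitting and 2 to 4 with a further array left out. Over all clusters 18 were called with 8 arrays, against 1 with the block, 48 with array weights and 9 without clusters below the median, a filter that leaves 8854 clusters; leaving out 1 array gave 1 to 91. Without EV replicate 1, 91 were called, against 106 with trend and robust fitting and 25 to 152 with a further array left out. The causes were not tested. The replicate numbers did not show a pairing of the tumours. Deviations of same-numbered tumours correlated at -0.113, 0.0389, 0.0713 and -0.0188. Not every BORA tumour was closest to the EV tumour of its own number. With 4 tumours per group, such correlations cannot settle whether tumours were paired. The list genes stayed at 0 calls in all 17 alternatives over 8 arrays. The direction of MMP1, MMP2, MMP7, MMP10, MMP13, MMP14 and TIMP1 was the same in all alternatives with and without EV replicate 1; MMP9 changed sign in 5 of 15 and in 5 of 14, and MMP3 in 1 of 14 without that array. Signal near background limits MMP3, MMP9 and the EV levels of MMP14.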

Other observations

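Some other genes of the metalloproteinase system, chosen after their values were seen, lay far from the rest in EV replicate 1. TIMP3, an inhibitor bound to the matrix, was at 8.86, 8.62, 8.80 and 8.16 in BORA replicates 1 to 4, and at 13.37, 7.90, 6.99 and 6.79 in EV replicates 1 to 4. It was above background in all BORA tumours and, of the EV tumours, in EV replicate 1. Its log2 difference was -0.15 (SE 1.24) over 8 arrays and 1.38 (SE 0.27, limma adjusted p = 0.0572) without EV replicate 1, so the sign turned with that array. TNC, which encodes the matrix protein tenascin C, was at 8.92 to 10.003 in BORA tumours, 15.77 in EV replicate 1 and 7.66 to 12.01 in EV replicates 2 to 4. LRP1, a receptor that clears MMPs, was at 10.16 to 11.45 in BORA tumours, 12.85 in EV replicate 1 and 9.01 to 10.19 in EV replicates 2 to 4.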
